A study of Mus musculus with 6 samples.

Results

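Annexins are calcium-dependent proteins that bind phosphatidylserine and other acidic phospholipids on the inner face of membranes. They share a core of annexin repeats, whereas their N-terminal regions differ and carry the sites for partners such as the S100 proteins. They are known for roles in membrane repair, vesicle traffic and the resolution of inflammation, and labelled annexin A5 is the usual stain for the phosphatidylserine that dying cells expose. The 8 annexin genes *Anxa1*, *Anxa2*, *Anxa3*, *Anxa4*, *Anxa5*, *Anxa6*, *Anxa7* and *Anxa11* were taken by their names in the deposited tables. All 8 were found among the 24421 genes listed and were among the 15137 genes tested.

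Astrocytes came from the hippocampi of adult male *Siglech* dtr/dtr mice on a C57BL/6 background, in which the diphtheria toxin receptor is carried at the *Siglech* locus of microglia. The mice received PBS (3 libraries) or DT, diphtheria toxin, at 50 µg/kg (3 libraries), and cells were taken on day 2. Both groups carried the same alleles, so an effect of DT without the receptor cannot be told apart from an effect of microglial ablation. Each library was a pool of 2 mice, and the pools came from 3 independent experiments. Cells that bound anti-CD11b beads were removed first, and the astrocytes were then captured with anti-ACSA-2 beads.

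The libraries held 21704891 to 32933975 reads assigned to genes. The 10 astrocyte markers, among them *Aqp4*, *Aldh1l1* and *Slc1a3*, summed to 23736 to 25259 TPM (a level per transcript length, scaled to a fixed sum in each library) after PBS and to 23894 to 25342 TPM after DT. The 11 microglia markers summed to 222 to 265 TPM after PBS and to 131 to 145 TPM after DT. Of the 11, 8 passed the threshold as lower (limma, adjusted p under 0.05), against 0.159% of all genes tested. *Siglech* was at 1.14 to 2.62 TPM after PBS and listed at 0 in each DT library. The study reports that microglial Siglec-H is considerably reduced in homozygotes, so the *Siglech* level after PBS may understate the microglia present. In pooled cells, a smaller number of cells of a type cannot be told apart from less RNA per cell.

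None of the 8 annexins passed the threshold after DT (0 of 8, limma, adjusted p under 0.05 over all genes tested), where 0.713% of all genes tested did. Of all genes, 0.555% passed as higher and 0.159% as lower. At an unadjusted p under 0.05 there were 2, *Anxa2* and *Anxa11*, where 10.4% of all genes did. On the recovered reads, 0 of 8 passed with edgeR's quasi-likelihood test (0.733% of all genes), with its exact test (1.74%) and with DESeq2 (2.15%). An unadjusted p under 0.05 was found for 4 of 8 with the quasi-likelihood test (10.3% of all genes), for 3 of 8 with the exact test (9.07%) and for 4 of 8 with DESeq2 (9.78%). The estimate was above 0 for 6 members, against 48.7% of all genes tested, and below 0 for 2. The median log2 fold change of the members was 0.14, against -0.01 for all genes tested. In 4 of 8 members (*Anxa2*, *Anxa5*, *Anxa7* and *Anxa11*) every DT library was higher than every PBS library, against 8.75% of all genes tested, and in 0 of 8 every DT library was lower, against 7.57%. A log2 fold change here is that of CPM (reads scaled to library size) plus 0.1, DT over PBS, and it understates changes of genes with few reads.

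By TPM, *Anxa5* had the highest level, followed by *Anxa6*, then by *Anxa7* and *Anxa2*, then by *Anxa1*, *Anxa3*, *Anxa4* and *Anxa11*. After PBS the ranges of *Anxa5*, of *Anxa6* and of the next pair did not overlap, and *Anxa2* lay above *Anxa1* in each library. The PBS ranges of *Anxa7* and *Anxa2* overlapped, and so did those of *Anxa1* and *Anxa3*, *Anxa3* and *Anxa4*, and *Anxa4* and *Anxa11*. Within each PBS library, *Anxa4* lay above *Anxa11*. Differences between genes were not tested. After DT, *Anxa2* stood above *Anxa7* by mean TPM with overlapping ranges, and *Anxa3* was the lowest of the 8 by mean. The TPM of the 8 genes summed to 528 ± 18.5 (SD, n = 3) after PBS and to 589 ± 39.3 (SD, n = 3) after DT. *Anxa5* made up 43.1% to 46.4% of that sum over the 6 libraries. *Anxa2* made up 9.55% to 10.1% of it after PBS and 10.96% to 14.2% after DT, without overlap. The shares of *Anxa6* (18.0% to 19.0% after PBS, 14.9% to 17.4% after DT) and *Anxa3* (3.02% to 6.21%, then 2.50% to 2.75%) did not overlap either. Both were lower after DT. Shares of the same sum are tied, so a larger share of 1 gene lowers those of others.

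**Figure D1:**
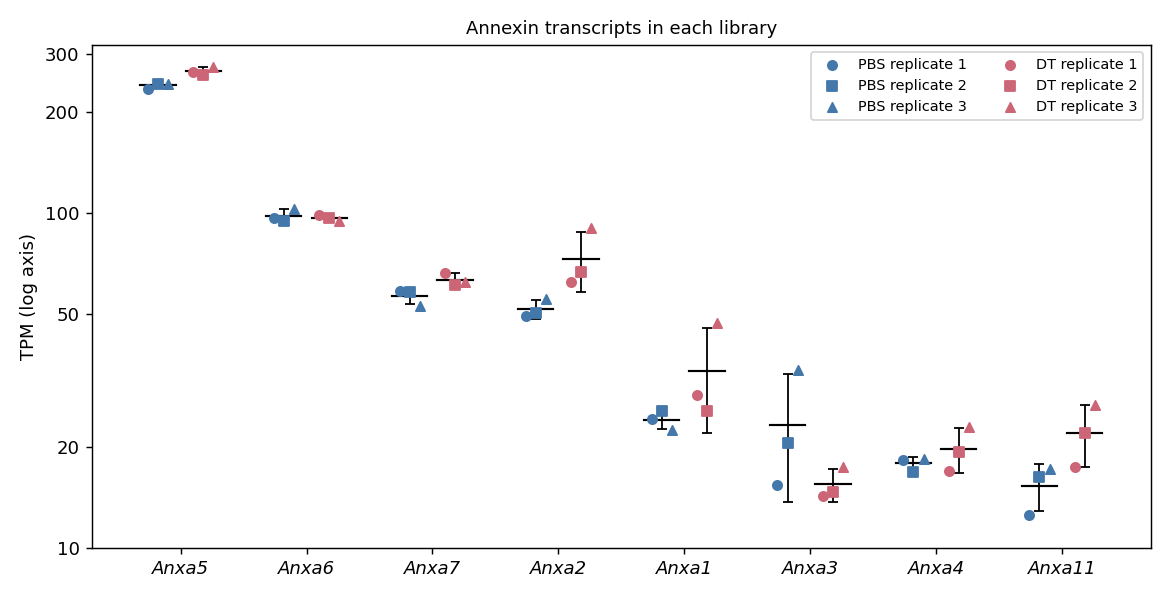
TPM on a log axis of the 8 annexins in each library, with the mean and SD (n = 3) of each group in black and a marker shape for each replicate number. *Anxa5* sits above 200 TPM in each library, *Anxa3* is widest among the PBS libraries and *Anxa1* among the DT libraries, where DT replicate 3 is highest.

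*Anxa5*, a soluble phosphatidylserine-binding protein, lies on chromosome 3 of mm10, minus strand, between 36448923 and 36475894. It was at 235, 244 and 244 TPM in the PBS libraries and at 264, 258 and 273 TPM in the DT libraries, from 3064 to 4674 reads per library. The groups did not overlap, but they lay close together, and the exact permutation test of TPM gave p = 0.1 (two-sided), the smallest that 3 against 3 allow. On the log2 scale DT exceeded PBS by 0.13 (SE 0.06, 95% interval -0.00083 to 0.25, limma adjusted p = 0.483), so a rise of more than 1.19-fold lay outside the interval. By TPM, *Anxa5* stood at percentile 96.5 of the genes tested. Among about 500 genes of similar CPM its spread within the groups was at percentile 9.78, a narrow one.

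*Anxa6*, whose protein holds a duplicated annexin core and is known from membrane traffic and cholesterol handling, lies on chromosome 11 from 54979108 to 55033445. It was at 97.0, 94.9 and 103 TPM after PBS and at 98.7, 96.5 and 94.8 TPM after DT. The groups overlapped. The log2 fold change was -0.04 (95% interval -0.19 to 0.11, adjusted p = 0.886 from limma), a narrower interval than those of the low members, and it ran from -0.075 to -0.0032 over the alternatives.

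*Anxa2* lies on chromosome 9 from 69453620 to 69491795, and its protein joins with S100A10 into a complex under the plasma membrane and on the cell surface. It was at 49.2, 50.2 and 55.4 TPM in the PBS libraries and at 62.3, 66.6 and 90.0 TPM in the DT libraries. Every DT library was above every PBS library, and DT replicate 3 stood above the other DT libraries at 1.40 times their mean. The log2 fold change was 0.47 (standard error 0.13, 95% interval 0.16 to 0.77), with an unadjusted p of 0.00753 and an adjusted p of 0.268 from limma. Among all alternatives the adjusted p of *Anxa2* ran from 0.0560 (DESeq2) to 0.484 and the log2 fold change from 0.31 to 0.56. The lowest estimate, 0.31, was that without DT replicate 3.

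*Anxa1*, which encodes a glucocorticoid-regulated protein known as a ligand of formyl peptide receptors and for restraining inflammation, lies on chromosome 19 from 20373428 to 20390944. It was at 24.2, 25.7 and 22.5 TPM after PBS and at 28.5, 25.6 and 47.1 TPM after DT. DT replicate 2 fell within the PBS range, while DT replicate 3 was at 1.74 times the mean of the other DT libraries. The log2 fold change was 0.41 (95% interval -0.07 to 0.89, adjusted p = 0.543 from limma), and without DT replicate 3 it was 0.15 (adjusted p = 0.877). The estimate for *Anxa1* thus rested largely on that library.

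Of the receptors of annexin A1, *Fpr2* and *Fpr3* had no read in any of the 6 libraries, which allows up to 0.0904 to 0.138 CPM per library (3 reads, counting error only). *Fpr1* had 0 to 10 reads per library and was not tested. *Pla2g4a*, the cytosolic phospholipase A2 that annexin A1 was first described as inhibiting, was estimated at -0.10 on the log2 scale (adjusted p = 0.906), and *Nr3c1*, the glucocorticoid receptor, at -0.14 (adjusted p = 0.536). Neither passed the threshold with limma.

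Ependymal markers were also highest in DT replicate 3. The 8 ependymal markers, among them the ciliogenesis factor *Foxj1* and the ciliary gene *Hydin*, summed to 559, 697 and 683 TPM in the PBS libraries and to 746, 769 and 1242 TPM in the DT libraries. Of these 8 genes, 8 were highest of the 6 libraries in DT replicate 3, none was at 0, and 0 passed the threshold. All 8 had a log2 fold change above 0, with a median of 0.51. In 6 of 8 every DT library was above every PBS library, against 8.75% of all genes tested. Among the annexins, 5 of 8 had their highest CPM in DT replicate 3 (*Anxa1*, *Anxa2*, *Anxa4*, *Anxa5* and *Anxa11*), where 19.0% of all genes tested did. The 9 choroid plexus markers ran differently over the libraries. Their sum was at 147 to 2246 TPM after PBS and 1400 to 3783 TPM after DT, with DT replicate 3 the lowest of the DT libraries. All 9 had a log2 fold change above 0 (median 1.70), and 2 of 9 did not overlap between the groups, against 8.75% of all genes as higher. Marker sums of 2 other lists were also highest in DT replicate 3. That of pericytes and smooth muscle was at 1188 TPM there, with 3 of 7 markers highest in that library. That of neurons was at 332 TPM, beside 331 TPM in DT replicate 2, with 5 of 8 markers highest in DT replicate 3. The part of RNA of any of these cell types in the annexin values was not tested.

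**Figure D2:**
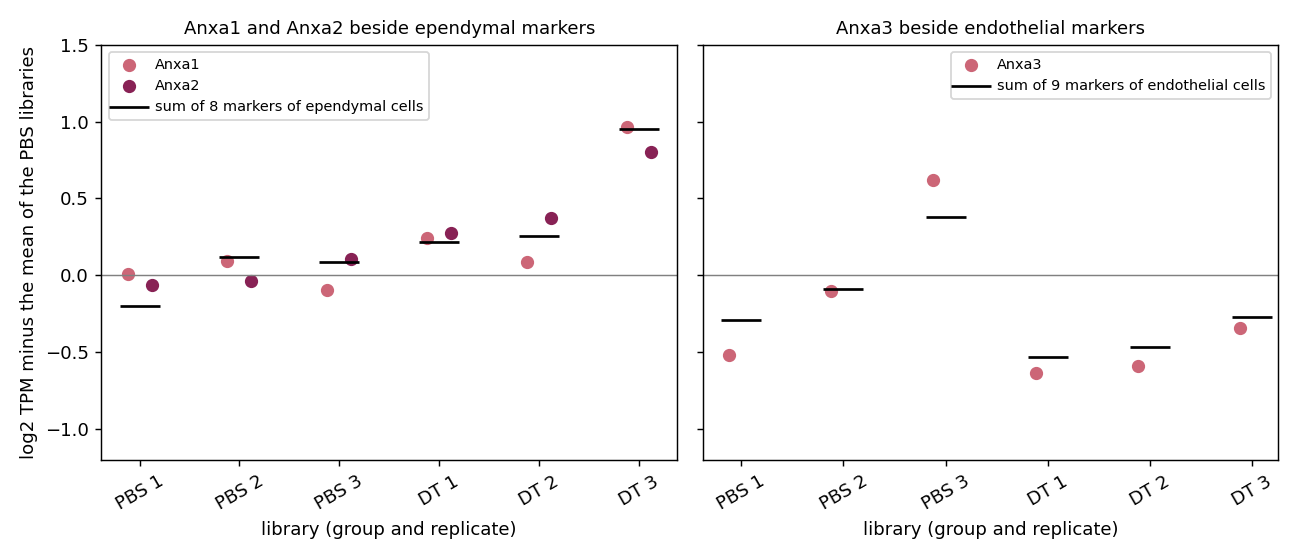
Log2 TPM in each library minus the mean over the PBS libraries, for *Anxa1* and *Anxa2* beside the sum of the 8 ependymal markers (left) and for *Anxa3* beside the sum of the 9 endothelial markers (right). The left values are highest in DT replicate 3, and the right values are highest in PBS replicate 3.

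*Anxa3*, known from endothelial cells and microglia among other cells, lies on chromosome 5 from 96793339 to 96845966. It was at 15.4, 20.6 and 34.0 TPM in the PBS libraries and at 14.2, 14.7 and 17.4 TPM in the DT libraries. The DT libraries were close together, and DT replicate 3 lay above PBS replicate 1. PBS replicate 3 was at 1.89 times the mean of the other PBS libraries. The log2 fold change was -0.53 (95% interval -1.11 to 0.05, adjusted p = 0.522 from limma), the most negative of the 8, and without PBS replicate 3 it was -0.22 (adjusted p = 0.680). The spread of *Anxa3* within the groups was at percentile 95.6 among genes of similar CPM.

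Endothelial markers had their highest level in the same library as *Anxa3*. The 9 markers, among them the tight junction gene *Cldn5* and the receptor *Flt1*, summed to 699, 802 and 1113 TPM after PBS and to 591, 617 and 708 TPM after DT. All 9 were highest in PBS replicate 3, against 16.7% of all genes tested, none was at 0, and 0 passed the threshold. The median log2 fold change of these markers was -0.39. Of the 11 microglia markers, 4 were highest in PBS replicate 3. The part of either cell type in the level of *Anxa3* was not tested.

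*Anxa11* and *Anxa7* encode annexins with long N-terminal regions that bind the calcium sensor ALG-2, the product of *Pdcd6*. *Anxa11*, known for tethering RNA granules to lysosomes, lies on chromosome 14 from 25842156 to 25886804. It was at 12.5, 16.2 and 17.1 TPM after PBS and at 17.5, 22.1 and 26.7 TPM after DT. The groups did not overlap, although PBS replicate 3 and DT replicate 1 were nearly level. The log2 fold change was 0.50 (standard error 0.17, 95% interval 0.12 to 0.89), with an unadjusted p of 0.0169 and an adjusted p of 0.365 from limma. Over the alternatives it ran from 0.36, without DT replicate 3, to 0.64, without DT replicate 1, and the adjusted p from 0.111 to 0.673. With all 6 libraries the estimate was the highest of the 8, but those of *Anxa1* and *Anxa2* were higher without PBS replicate 1 (0.43 and 0.45, against 0.38) and without DT replicate 2 (0.60 and 0.54, against 0.51). The gene *Anxa11os* overlaps it on the opposite strand, and *Anxa1*, *Anxa2* and *Anxa4* also have such a neighbour. Reads were mapped with strand information, but the strand setting of the counting is not given in the sources used here.

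*Anxa7*, on the minus strand of the same chromosome from 20455260 to 20480133, was at 58.6, 57.9 and 52.9 TPM after PBS and at 66.5, 61.1 and 62.2 TPM after DT. Every DT library was above every PBS library by a small margin. Its log2 fold change was 0.15 (95% interval -0.02 to 0.32, adjusted p = 0.526 from limma), from 1151 to 1840 reads per library. On the log2 scale *Pdcd6* was estimated at -0.15 (limma adjusted p = 0.709), and *Sri*, which encodes the calcium-binding protein sorcin, at -0.07 (limma adjusted p = 0.817).

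*Anxa4*, known from secretory and ductal epithelia, lies on chromosome 6, minus strand, between 86736840 and 86793584. It was at 18.2, 16.9 and 18.5 TPM after PBS and at 16.9, 19.4 and 22.9 TPM after DT. The groups overlapped, and the log2 fold change was 0.12 (95% interval -0.18 to 0.42, adjusted p = 0.801 from limma). It was 0.012 without DT replicate 3, 0.069 without PBS replicate 2 and 0.21 without DT replicate 1.

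**Figure D3:**
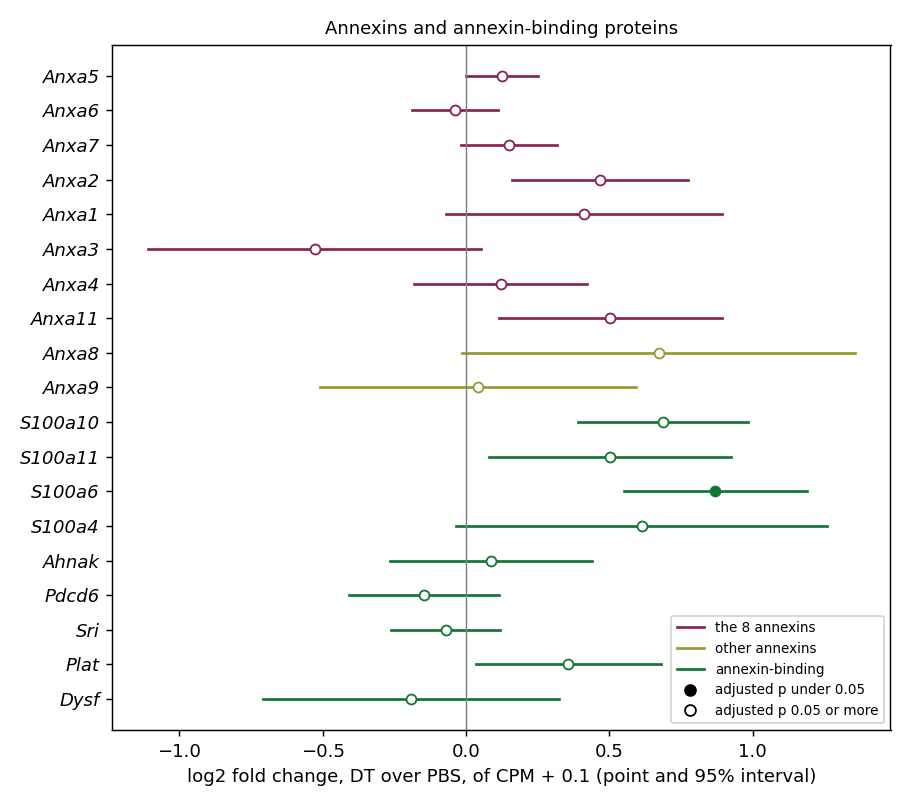
Log2 fold change of CPM + 0.1 (DT over PBS) with its 95% interval from limma for the 8 annexins, the other annexins with reads and the annexin-binding proteins, with a filled point where the adjusted p was under 0.05. The interval of *Anxa2* runs from 0.16 to 0.77 and that of *Anxa6* from -0.19 to 0.11, and *S100a6* is the only filled point.

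Promoter windows of 250 bases before the transcript start, from RefSeq on GRCm38.p6, were found for 6 of the 8 members in 8 windows, with no entry for *Anxa3* and *Anxa6*. Both strands were searched for the TATA box TATAAA, the AP-1 motif TGACTCA, the GC box GGGCGG and the CCAAT box. TATAAA was found in the windows of *Anxa1* and *Anxa2*, and in 12.4% of all 32851 windows. TGACTCA was found in that of *Anxa2*, and in 4.46% of all windows. GGGCGG was found in windows of *Anxa2*, *Anxa7* and *Anxa11*, and in 32.7% of all windows. CCAAT was found in no window of a member and in 33.8% of all windows. Such matches describe letters and not sites.

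The window of *Anxa11*, which had the highest log2 fold change of the members with all 6 libraries, is printed 5′ to 3′ on the strand of the gene. It is chr14:25841905-25842154 on the plus strand, with 3 GC boxes in capitals, read here as CCGCCC, that begin 53, 34 and 15 bases before the start. The GC boxes overlap no other motif searched.
Anxa11: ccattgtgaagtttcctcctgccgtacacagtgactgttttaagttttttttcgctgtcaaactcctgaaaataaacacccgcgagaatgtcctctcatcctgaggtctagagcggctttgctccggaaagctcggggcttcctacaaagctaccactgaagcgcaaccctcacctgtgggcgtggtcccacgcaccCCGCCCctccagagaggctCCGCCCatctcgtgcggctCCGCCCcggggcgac

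Among the other annexin genes, *Anxa8* was near the level of *Anxa11* after PBS. It was at 15.0, 11.7 and 19.2 TPM after PBS and at 25.7, 15.5 and 35.9 TPM after DT. DT replicate 2 lay within the PBS range, and the log2 fold change of 0.67 had an adjusted p of 0.486 from limma, and without DT replicate 3 it was 0.40. *Anxa9* was at 2.90 to 4.88 TPM after PBS and 3.60 to 4.07 TPM after DT. *Anxa10* and *Anxa13* had no read in any library, so that of the 12 annexin genes listed, 10 had reads.

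Among the S100 partners of the annexins, estimates were larger than for most of the annexins, and 1 gene passed the threshold. *S100a10*, the partner of annexin A2, was at 141, 182 and 177 TPM after PBS and at 314, 256 and 243 TPM after DT. Every DT library was higher, with the highest value in DT replicate 1 and not in DT replicate 3. The sum of the choroid plexus markers was also highest in DT replicate 1, at 3783, 2638 and 1400 TPM in the DT libraries. After PBS that sum was at 467, 2246 and 147 TPM. The part of choroid plexus RNA in the values of the S100 genes was not tested. The estimate on the log2 scale was 0.69 (SE 0.13, limma adjusted p = 0.0676). With edgeR's exact test and with DESeq2 it passed the threshold (adjusted p = 0.00123 and 0.000106), and with edgeR's quasi-likelihood test it did not (adjusted p = 0.0774). The difference between the fold changes of *S100a10* and *Anxa2* was not tested.

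*S100a6*, whose protein binds several annexins, rose from 60.7 ± 2.57 to 114 ± 20.5 TPM (SD, n = 3), or by 0.87 on the log2 scale (SE 0.14, limma adjusted p = 0.0350). It was the single member of 9 tested annexin-binding genes past the threshold, against 0.713% of all genes tested. Of the 9, 4 had an unadjusted p under 0.05 with limma, against 10.4% of all genes. In 4 of 9 every DT library was above every PBS library, against 8.75%. *S100a6* missed the threshold in 8 of 17 alternatives. Among them were each fit without a PBS library (adjusted p = 0.119, 0.105 and 0.0994 from limma) and those without DT replicate 1 (0.0624) and DT replicate 3 (0.0931). *S100a11*, the partner of annexin A1, was at 21.9, 31.0 and 32.2 TPM after PBS and at 44.2, 37.4 and 39.8 TPM after DT, without overlap (log2 estimate 0.50, limma adjusted p = 0.398). *S100a4*, another S100 gene, did not overlap between the groups but had 22 to 75 reads per library (log2 fold change 0.61, adjusted p = 0.508). *Ahnak*, a giant scaffold that binds the annexin A2 complex, was at 75.7 to 124 TPM after PBS and at 91.1 to 115 TPM after DT (log2 fold change 0.09, adjusted p = 0.888). *Plat*, the tissue plasminogen activator that binds annexin A2 at the cell surface, was estimated at 0.36 (adjusted p = 0.435), and *Plg* had no read. The median log2 fold change of the 9 genes was 0.36, that of *Plat*, and it was 0.23 without DT replicate 3, 0.24 without PBS replicate 2 and 0.22 among genes with a higher CPM minimum of 2.

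**Figure D4:**
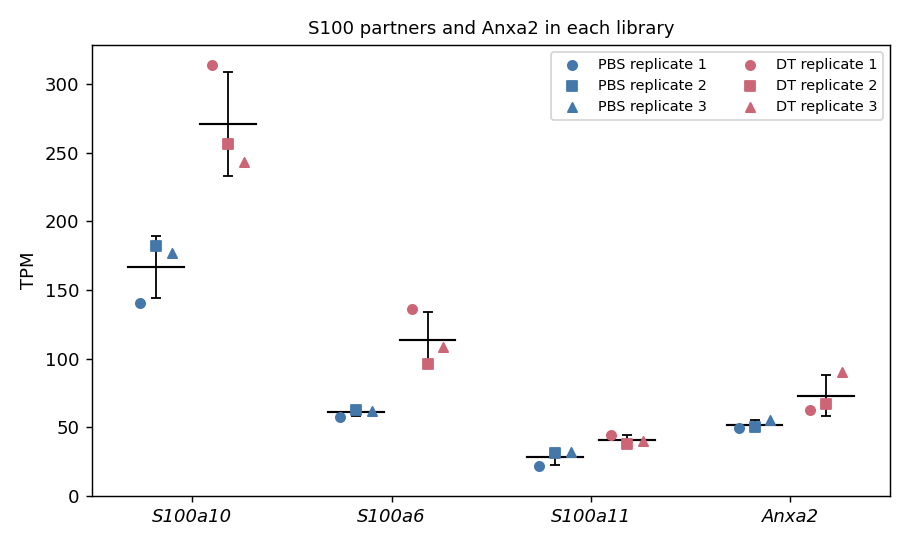
TPM of *S100a10*, *S100a6*, *S100a11* and *Anxa2* in each library, with the mean and SD (n = 3) of each group in black and a marker shape for each replicate number. Every DT value lies above every PBS value for each of the 4 genes, and DT replicate 1 is highest for the S100 genes whereas DT replicate 3 is highest for *Anxa2*.

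Genes of plasma membrane repair, in which annexins take part with dysferlin, calpains and the ESCRT machinery, numbered 12 among the genes tested. Of these, 0 passed the threshold with limma, against 0.713% of all genes tested, and 2 had an unadjusted p under 0.05, against 10.4% of all genes. The median log2 fold change was 0.03, and with 1 library left out it ran from -0.013 without DT replicate 1 to 0.071 without PBS replicate 1. The 2 genes were the calpain subunit genes *Capn1* (0.34, adjusted p = 0.476) and *Capns1* (0.21, adjusted p = 0.413), with no overlap between groups. In these 2 of 12 every DT library was above every PBS library, against 8.75% of all genes tested. In 0 of 12 every DT library was lower, against 7.57%. *Dysf* itself was at 2.51 to 4.69 TPM after PBS and 2.68 to 3.62 TPM after DT.

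Other extracellular proteins and receptors that bind phosphatidylserine were set beside the annexins, with 6 of 8 genes tested. Only *Pros1*, the gene of protein S, passed the threshold, where 0.713% of all genes tested did, at 0.58 on the log2 scale (SE 0.07, limma adjusted p = 0.00826). It was at 59.7, 57.3 and 64.7 TPM after PBS and at 88.5, 90.9 and 94.5 TPM after DT, a wide gap next to the spread in either group. *Mfge8*, an opsonin for apoptotic cells, was at 2371 ± 60.6 TPM after PBS and 2016 ± 172 TPM after DT (SD, n = 3) and did not overlap between the groups (log2 fold change -0.25, adjusted p = 0.362). *Stab2*, a scavenger receptor gene, was at 0.557 to 1.53 TPM after PBS and 0.286 to 0.549 TPM after DT (log2 fold change -1.10, adjusted p = 0.393). Its CPM averaged under 2, a low level. *Stab1* was estimated at 0.47 (limma adjusted p = 0.407). Of the 6 genes, 2 as higher and 2 as lower had an unadjusted p under 0.05 with limma, against 10.4% of all genes. Every DT library was above every PBS library in 1 of 6, against 8.75% of all genes, and below in 2 of 6, against 7.57%. Of the 8 tested genes of the scramblases and flippases that move phosphatidylserine across the membrane, 0 passed the threshold and 1 had an unadjusted p under 0.05, a share near the 10.4% of all genes tested. That was the scramblase gene *Ano6*, at 34.9, 39.0 and 35.3 TPM after PBS and 43.0, 43.7 and 44.4 TPM after DT (log2 fold change 0.25, adjusted p = 0.183 from limma).

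For *Anxa2*, *Anxa5* and *Anxa7*, whose groups did not overlap, the genes with the most similar course over the 6 libraries were sought among the 11792 genes whose CPM averaged 5 or more, by the root mean square difference of centred log2 values. The nearest to *Anxa2* were *Ttc25* (0.0384), *Nudt4* (0.0557) and *Chek2* (0.0610). Those of *Anxa5* were *Dnajc3*, *Rnf19a* and *Actb*, and those of *Anxa7* were *Mapk1ip1l*, *Vps37c* and *Ctsb*, at differences of 0.0173 to 0.0224. None of these 9 genes passed the threshold with limma. They were chosen for their likeness to members that did not pass, so this outcome was largely set by the choice.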

How the data were processed

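Total RNA of bead-isolated astrocytes was sequenced from 3 PBS and 3 DT libraries, grouped by their labels. Per the study's methods, the authors trimmed reads with Trim Galore 0.5.0, mapped them with HISAT2 2.1.0 to mm10 using strand information, removed ribosomal DNA reads with BEDTools 2.25.0, quantified with StringTie 1.3.5 and tested with edgeR 3.24.3. The strand setting of the counting step is not given in the sources used here.

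The deposited TPM values are per transcript length. The deposited CPM values are a signal scaled to the TMM-adjusted library size, a unit other than the plain CPM the planned design assumed, and dividing them by their smallest step gave whole reads for 100% of values (within 0.1 read). The deposited p-value, q-value and log fold change columns of the authors' own comparison were not used.

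Log2(CPM + 0.1) was tested with limma 3.58.1 (variance trend, two-sided, Benjamini-Hochberg adjustment over the 15137 genes whose CPM averaged 0.5 or more, threshold 0.05) in R 4.3.3. Alternatives were edgeR 4.0.16 and DESeq2 1.42.0 on recovered reads, other pseudocounts, filters and normalizations, a replicate block and leaving out each library. The code was tested on simulated data. The annexins and the gene lists were chosen with earlier results of these data known. Named genes were the members, the other annexins, genes of the related lists past the threshold or with an unadjusted p under 0.05 and groups that did not overlap, the partners *S100a10*, *S100a11*, *S100a6*, *Ahnak*, *Fpr1* and *Fpr2*, and the 3 genes nearest to each member whose groups did not overlap. The genes nearest to *Anxa11* are not reported here. *Fpr3*, *Pla2g4a*, *Nr3c1*, *Plat*, *Plg*, *Pdcd6*, *Sri*, *S100a4*, *Stab1* and *Dysf* were named outside that rule, after their values were seen. P-values and intervals measure the spread between pools, and floors cover counting error only.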

Additional observations from a re-analysis of the deposited data

How the results depend on the processing

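Of the 8 annexins, 0 passed the threshold in any alternative, and each kept the sign of its log2 fold change. Over all genes tested, 84 passed as higher and 24 as lower, against 35 and 11 with no variance trend, 191 and 72 with edgeR's exact test, and 227 and 98 with DESeq2. Leaving out 1 library gave 39 to 72 higher, with 39 without DT replicate 1 and 40 without DT replicate 2, and 9 to 20 lower, with 11, 9 and 10 without PBS replicates 1, 2 and 3 and 10 without DT replicate 2. Fewer samples enter those fits, and the cause of the other shifts was not tested. *Anxa9* reversed to -0.00388 with quantile normalization and ran from -0.12 to 0.22 with 1 library left out, and *Ahnak* ran from -0.070 to 0.24 in the same fits. *S100a6* missed the threshold with no filter (adjusted p = 0.0547) and no variance trend (0.139), and *Pros1* with no variance trend (0.0805), all from limma.

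Deviations of same-numbered PBS and DT libraries from their group means correlated at 0.115, 0.0105 and 0.118 for replicates 1, 2 and 3. Those of differently numbered libraries correlated at -0.124 to 0.0115. DT replicate 2 correlated about equally with PBS replicate 3 (0.0115) and PBS replicate 2 (0.0105). These values cannot decide whether same-numbered pools came from the same experiment, and the labels do not say so. The main fit was left unpaired. The replicate block gave 79 higher and 30 lower, 0 of 8 annexins, and an adjusted p of 0.0505 for *S100a6* from limma. With that block 5 of 8 annexins had an unadjusted p under 0.05 (*Anxa2*, *Anxa3*, *Anxa5*, *Anxa7* and *Anxa11*). The share of all genes at that level was not taken for this fit, so that count cannot be read as a result about the annexins. The adjusted p from limma was 0.108 for *Anxa2* and 0.111 for *Anxa11*, against 0.268 and 0.365 without the block. At 3 against 3, a member with a wide spread within the groups such as *Anxa3* had an interval from -1.11 to 0.05. Changes of that size could not be told from none.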

Other observations

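The annexins *Anxa1* and *Anxa3*, whose groups overlapped, were set beside their nearest genes as well, a choice made after their values were seen. The nearest to *Anxa1* over the 6 libraries were *Stoml3* (root mean square difference 0.0624 on the log2 scale), *Hydin* (0.0839), which is one of the ependymal markers, and *Dsg2* (0.0909). *Stoml3* was at 19.4 CPM in DT replicate 3 and at 9.65 to 11.9 CPM in the other libraries. The nearest to *Anxa3* were *Klf4* (0.0995), *Egfl7* (0.102) and *Itm2a* (0.117), at larger differences than those of *Anxa1*.

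Markers of border-associated macrophages summed to 16.4 to 27.1 TPM after PBS and to 60.7 to 80.8 TPM after DT. Of 7 tested, 3 passed the threshold as higher with limma, *Mrc1*, *Lyve1* and *F13a1*, against 0.555% of all genes tested. Their part in the annexin values was not tested. Of the 6 listed markers of monocytes and neutrophils, cells rich in *Anxa1*, 4 were at 0 in each library.

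The other marker lists had 0 genes past the threshold with limma. Their sums ran from 685 to 1021 TPM after PBS and 827 to 1188 TPM after DT for pericytes and smooth muscle, from 89.3 to 130 and 79.8 to 110 TPM for meningeal fibroblasts, from 462 to 572 and 408 to 504 TPM for oligodendrocytes, from 212 to 257 and 176 to 196 TPM for their precursors, and from 221 to 264 and 187 to 332 TPM for neurons.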
